A study of Homo sapiens with 10 samples.

Results

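The transcripts of 6 DNA mismatch repair genes, MSH6, MSH3, PMS2, PMS1, MLH3 and EXO1, were followed across 5 prostate cancer cell lines. They were chosen by name, all 6 were found among the 60642 gene symbols of the expression table, and all 6 were among the 17520 genes that reached at least 1 TPM (transcripts scaled to their length and to the library total, a level that can be compared between genes) in at least 2 samples and were tested. LNCaP, VCAP, DUCAP, PC3 and DU145 cells were each untreated, grown in medium with fetal bovine serum, harvested in exponential growth and profiled by poly(A) RNA-seq in 2 biological repeats, so that the table held 10 samples. LNCaP is a line from a lymph node metastasis that responds to androgen, DUCAP and VCAP are lines from metastases of the same patient that carry an ERG fusion, and DU145 and PC3 are lines that grow without androgen receptor signaling. A difference between lines cannot be told apart from a difference in culture history, and the repeats measure the spread within a line only. RNA was pooled over each culture, so that fewer cells with a transcript and less of it per cell cannot be told apart either. Repeats of DU145 and PC3 are numbered here as biological repeats, although their labels also give other culture numbers.

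Mismatch repair removes wrongly paired bases and small loops left behind by DNA polymerases. A MutS-type dimer recognises the error. In it MSH6, the partner that directs the dimer to base mismatches and the smallest loops, and MSH3, the partner that directs it to larger loops, compete for a shared subunit. A MutL-type dimer is then recruited, in which PMS2 supplies the endonuclease used in most repair, MLH3 forms an endonuclease with a main role in meiosis, and PMS1 has no well-defined role in repair. EXO1 is the 5′ to 3′ exonuclease that degrades the strand with the error. LNCaP and DU145 are both known as mismatch repair deficient lines, LNCaP through the MutS side and DU145 through the MutL side, and the partner proteins of a lost subunit are known to become unstable. Protein was not measured here, so the values below describe transcripts only.

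The lines were checked against marker genes before the comparison. The epithelial genes KRT8, KRT18 and CDH1 were present in all 10 samples, with summed levels from 323.9 to 1982 TPM. Each of 4 luminal or androgen-regulated genes (KLK2, KLK3, TMPRSS2 and HOXB13) was detected at 1 TPM or more in LNCaP, DUCAP and VCAP, against 2 of 4 in PC3 and 0 of 4 in DU145. ERG stood at 122.46 to 198.92 TPM in the DUCAP and VCAP samples, with 0.19 TPM the highest level elsewhere. Of 8 leukocyte, endothelial and fibroblast markers the summed level was 0.23 to 12.15 TPM except in PC3, where COL1A1 brought it to 36.19 and 47.44 TPM. The mitochondrial genes took 32.1 to 36.0% of all TPM in DUCAP and VCAP and 12.7 to 22.5% in the other lines, which leaves less of the total for nuclear genes in DUCAP and VCAP, and its part in the differences below was examined by rescaling.

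Position and sequence were taken from RefSeq on GRCh38.p14, and each gene matched by symbol. MSH6 lies on the plus strand at chr2:47783145-47810101, PMS1 further along the same chromosome on the plus strand at chr2:189784450-189877629, and MSH3 on the plus strand at chr5:80654652-80876815. PMS2 lies on the minus strand at chr7:5970925-6009106, MLH3 on the minus strand at chr14:75013775-75051467, and EXO1 on the plus strand at chr1:241847986-241889939. The 250 bases before the start of MSH6 are printed because MSH6 differed most between the lines. They lie at chr2:47782895-47783144 and are given 5′ to 3′ on the plus strand, with a CCAAT element on the opposite strand (ATTGG) in capitals.
MSH6 upstream window: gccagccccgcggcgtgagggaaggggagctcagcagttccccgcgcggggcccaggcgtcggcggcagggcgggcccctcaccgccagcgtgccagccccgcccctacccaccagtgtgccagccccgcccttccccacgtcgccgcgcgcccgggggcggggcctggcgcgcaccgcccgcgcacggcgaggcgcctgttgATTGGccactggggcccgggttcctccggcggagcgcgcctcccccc
This window had a GC content of 81.2%, at the 97.4 percentile of 15843 RefSeq promoter windows of the same length, whereas the MLH3 window, at 47.2%, stood at the 16.0 percentile. A CCAAT element on either strand was found in the windows of MSH6, PMS1 and PMS2, against 34.5% of all windows, and a GC box (GGGCGG, either strand) in those of all members but MLH3, against 55.8%.

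The windows were also searched for E2F-type letters, which occur in promoters of many genes of DNA synthesis. The 4 words TTTCCCGC, TTTGGCGC, TTTCGCGC and TTTGCCGC were looked for on both strands, and 3.71% of the 15843 windows held at least 1 of them. They were found in MSH3, where 2 matches on opposite strands overlap (first bases at −107 and −103 from the start), and in PMS2 (−43). The 30 bases around each match are shown 5′ to 3′ on the strand of the gene, with the matching letters in capitals, at chr5:80654534-80654563 for MSH3 and chr7:6009131-6009160 for PMS2.
MSH3 site: gcgcggtcaagTTTGGCGCGAAAttgtggc
PMS2 site: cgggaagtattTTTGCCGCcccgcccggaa
A match is a description of the letters, and the windows of MSH6, MLH3, PMS1 and EXO1 held none of them. The EXO1 window lies before a start of the promoter table that is downstream of the first base of the gene.

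Across the 5 lines the members differed in how far their levels spread. MSH6 ranged 30.8-fold between the lowest and the highest sample, PMS2 5.87-fold, EXO1 5.56-fold, MLH3 3.73-fold, MSH3 2.40-fold and PMS1 2.29-fold. In a limma fit of log2(TPM + 1) with 1 coefficient per line, the moderated F test called a difference among the lines at a Benjamini-Hochberg adjusted p under 0.05 for 5 of 6 members, where 90.8% of all tested genes were called. EXO1 was the member that was not called, with an adjusted p of 0.44 by limma. MSH6 stood at the 93.2 percentile of F among the tested genes and PMS2 at the 66.2 percentile, whereas MLH3, PMS1 and MSH3 stood at the 33.6, 16.7 and 10.1 percentiles. F sets the difference between lines against the spread between repeats, so a low percentile is not by itself a small difference. For every gene named below, overlap between the samples of lines is only a description. The share of all tested genes that separate in the same way is not given. Fold changes below are on the log2(TPM + 1) scale, which understates the change of low genes, and each line was compared with the mean of the other 4 lines in the same fit, so that the comparisons share samples.

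**Figure D1:**
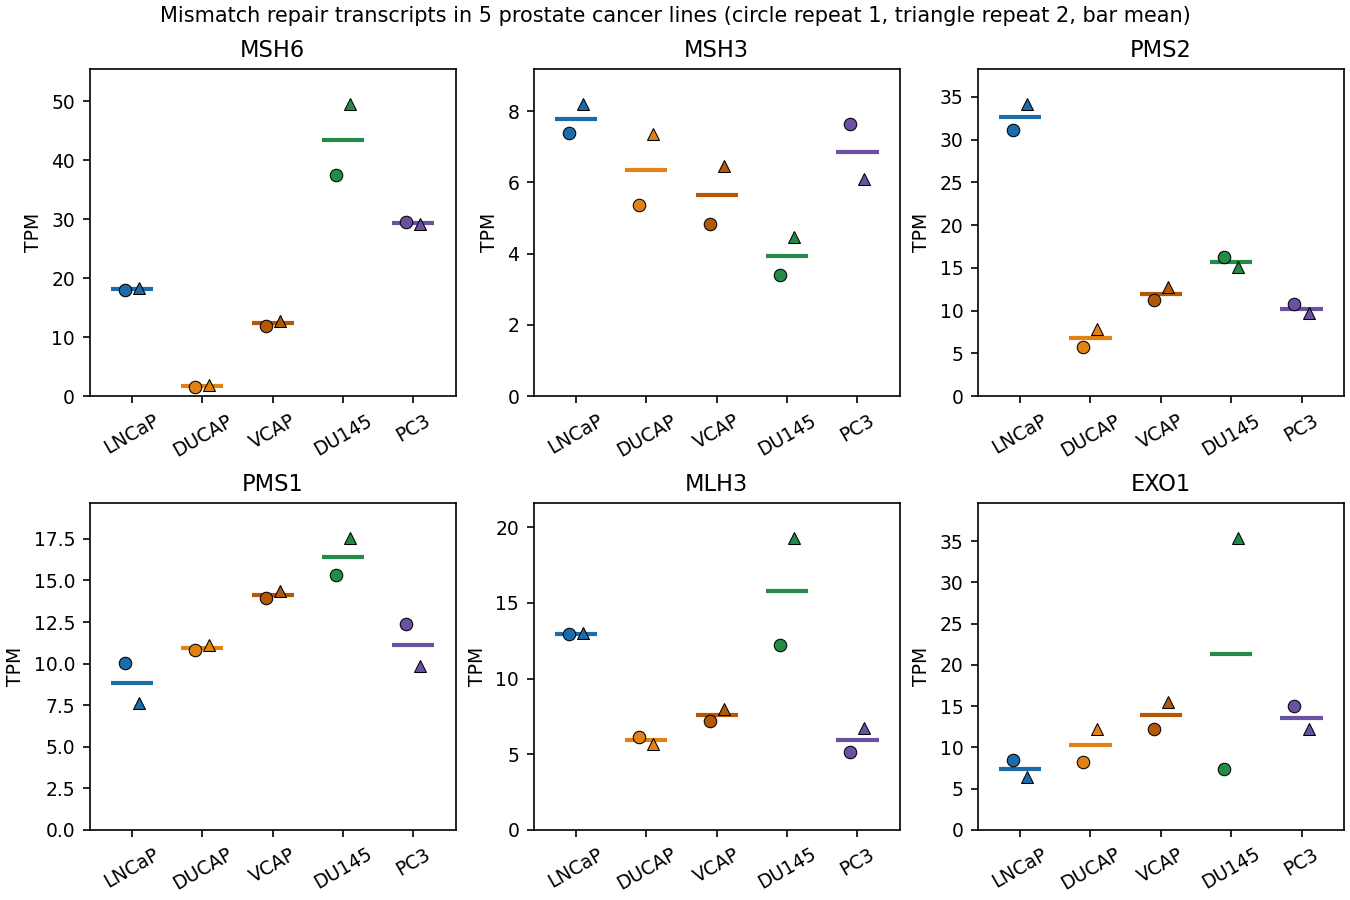
Level of each mismatch repair transcript in TPM (y axis, from 0) in the 2 repeats of each line (x axis), with a bar at the mean of the line. MSH6 runs from 1.61 TPM in DUCAP to 49.50 TPM in DU145, PMS2 is highest in LNCaP, and the repeats of DU145 stand apart for EXO1.

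Among the MutS partners, MSH6 separated all 5 lines. It was measured at 1.61 and 1.97 TPM in DUCAP, 11.89 and 12.80 TPM in VCAP, 18.04 and 18.34 TPM in LNCaP, 29.62 and 29.15 TPM in PC3, and 37.54 and 49.50 TPM in DU145. No neighbours in this order overlapped, but the share of all tested genes that separate the lines likewise is not given here. MSH6 was lower in DUCAP than in the mean of the other lines by a log2 fold change of −3.12 ± 0.13 (SE, adjusted p = 9.2e-07 by limma), which placed it at the 1.2 percentile of all tested genes. In DU145 it was higher by 1.86 ± 0.13 (adjusted p = 6.4e-06 by limma) and in PC3 by 1.19 ± 0.13 (adjusted p = 7.1e-05 by limma). LNCaP, the line with a defect on the MutS side, held MSH6 transcript at a level between those of VCAP and PC3, and its difference from the other lines was 0.36 ± 0.13 (adjusted p = 0.038 by limma). The median of all tested genes in that comparison was 0.18, and the LNCaP value fell to 0.11 (adjusted p = 0.43 to 0.45) under the scalings that bring this median near 0.

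MSH3 was among the least variable members. It was lowest in DU145 at 3.41 and 4.46 TPM, and it was measured at 4.82 and 6.46 TPM in VCAP, 5.36 and 7.36 TPM in DUCAP, 7.64 and 6.08 TPM in PC3, and 7.39 and 8.19 TPM in LNCaP. DU145 lay below each of the other lines. Both LNCaP samples lay above those of VCAP and DUCAP, at the closest by 7.39 against 7.36 TPM. The remaining pairs of lines overlapped. The DU145 value lay below the other lines by −0.63 ± 0.17 on the log2 scale (adjusted p = 0.012 by limma), although without repeat 1 of DU145 it was −0.47 and not called. In LNCaP the MSH3 difference was 0.42 ± 0.17 (adjusted p = 0.06 by limma).

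The 2 MutS partners therefore stood in different proportions. The ratio of MSH6 to MSH3 transcript within a sample was 11.0 and 11.1 in DU145, 3.88 and 4.79 in PC3, 2.44 and 2.24 in LNCaP, 2.47 and 1.98 in VCAP, and 0.300 and 0.268 in DUCAP. DUCAP was the only line with more MSH3 than MSH6. In DU145 the mean log2 ratio exceeded that of the other 8 samples by 2.80 (exact permutation test over samples, two-sided, p = 0.0444, adjusted over the 6 ratio tests 0.0889), and 0.0444 is the smallest p that 2 against 8 samples can give when the smaller tail is doubled, as was done here. Permuting whole lines, with p as the share of the 5 lines whose difference was at least as large in either direction and thus not below 0.2, gave an exact p of 0.4, since the DUCAP ratio lay further from the other lines on the low side. The LNCaP ratio did not differ detectably from the rest, with mean log2 ratios of 1.23 in LNCaP and 1.23 in the other lines (exact permutation p = 0.933).

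**Figure D2:**
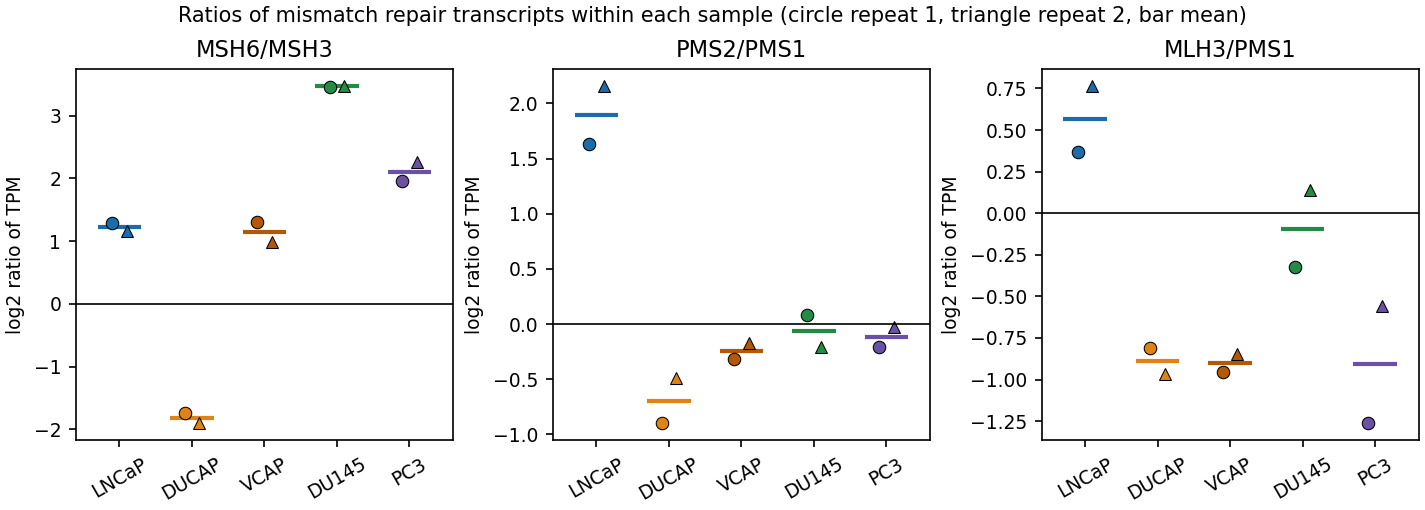
Log2 ratio of MSH6 to MSH3, PMS2 to PMS1 and MLH3 to PMS1 (y axis) within each sample, by line (x axis), with the line mean as a bar and equality at 0. DU145 is highest and DUCAP alone is below 0 for MSH6 to MSH3, and LNCaP is highest for both ratios to PMS1.

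Among the MutL partners, PMS2 was highest in LNCaP. It was measured there at 31.17 and 34.12 TPM, against 16.22 and 15.16 TPM in DU145, 11.23 and 12.76 TPM in VCAP, 10.72 and 9.70 TPM in PC3, and 5.81 and 7.90 TPM in DUCAP. As for MSH6, no neighbours in the order overlapped, again with no share of all tested genes beside it. LNCaP stood above the other lines by 1.52 ± 0.13 (adjusted p = 2.7e-05 by limma), DUCAP stood below by −1.12 ± 0.13 (adjusted p = 0.00015 by limma), and PC3 stood below by −0.46 ± 0.13 (adjusted p = 0.014 by limma). The median of all tested genes in the DUCAP comparison was −0.54, and PMS2 stood at the 21.4 percentile there. In DU145, the line with a defect on the MutL side, PMS2 differed from the other lines by 0.26 ± 0.13 (adjusted p = 0.13 by limma), close to the median of all tested genes of 0.23.

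PMS2 has many near-identical copies in the genome, so the share of reads given to it is uncertain. The table held 11 of these relatives, PMS2CL and PMS2 pseudogenes, of which 1 was at 0 in all samples. Their summed level was 35.90 and 32.76 TPM in LNCaP, 21.26 and 22.21 TPM in DUCAP, and 38.89 to 65.54 TPM in the other lines. PMS2 accounted for 46.47 and 51.02% of the TPM of itself and its relatives in LNCaP and for 18.8 to 26.2% in the other lines. Of the 8 relatives that were tested, PMS2P4 was higher in LNCaP (1.11 ± 0.17, adjusted p = 0.00056 by limma) and 3 were lower, so 4 of 8 were called, where 62.4% of all tested genes were. In DUCAP, where PMS2 was lowest, 6 of the 8 were lower, where 57.7% of all tested genes were, among them PMS2CL (−1.44 ± 0.15, adjusted p = 7.1e-05 by limma) and PMS2P4 (−1.36 ± 0.17, adjusted p = 0.00018 by limma).

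MLH3 was higher in LNCaP and DU145 than in the other lines. The values were 12.97 and 12.99 TPM in LNCaP and 12.25 and 19.29 TPM in DU145, against 7.19 and 7.98 TPM in VCAP, 6.16 and 5.69 TPM in DUCAP, and 5.17 and 6.71 TPM in PC3. LNCaP and DU145 overlapped each other but none of the other 3 lines, again with no share of all tested genes beside it. MLH3 was called higher in LNCaP (0.63 ± 0.17, adjusted p = 0.013 by limma) and in DU145 (0.91 ± 0.17, adjusted p = 0.0019 by limma) and lower in PC3 (−0.65 ± 0.17, adjusted p = 0.01 by limma). The LNCaP call was lost after quantile normalization (0.38, adjusted p = 0.11 by limma) and median-ratio scaling (0.34, adjusted p = 0.12). It was also called lower in DUCAP (−0.64 ± 0.17, adjusted p = 0.011 by limma), but the median of all tested genes there was −0.54, and after quantile normalization the MLH3 difference was 0.045 (adjusted p = 0.85 by limma).

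PMS1 had the narrowest range of the members. It was measured at 10.05 and 7.65 TPM in LNCaP, 10.82 and 11.10 TPM in DUCAP, 12.40 and 9.86 TPM in PC3, 13.95 and 14.36 TPM in VCAP, and 15.32 and 17.55 TPM in DU145. PC3 overlapped both LNCaP and DUCAP, and the other pairs of lines were free of overlap. PMS1 was lower in LNCaP by −0.51 ± 0.14 (adjusted p = 0.012 by limma) and higher in DU145 by 0.53 ± 0.14 (adjusted p = 0.011 by limma). The LNCaP difference was −0.34 without repeat 2 of LNCaP and −0.69 without repeat 1. The DU145 call was lost after median-ratio scaling (0.20, adjusted p = 0.2 by limma) and quantile normalization (0.13, adjusted p = 0.43 by limma).

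LNCaP thus had the highest PMS2 and the lowest mean of PMS1, although its PMS1 values overlapped those of PC3, and the ratio of the 2 transcripts was 3.10 and 4.46 in LNCaP against 0.537 to 1.06 in the other samples. The mean log2 difference was 2.17 (exact permutation test over samples, two-sided, p = 0.0444, adjusted 0.0889, exact p over whole lines 0.2). The ratio of MLH3 to PMS1 behaved likewise, at 1.29 and 1.70 in LNCaP and 0.417 to 1.10 elsewhere, with a mean log2 difference of 1.26 and the same p-values. In DU145 neither ratio to PMS1 was separated from the rest, with mean log2 differences of −0.275 (exact permutation p = 0.933) for PMS2 and 0.440 (exact permutation p = 0.4, adjusted 0.6) for MLH3.

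EXO1 differed more between the repeats of DU145 than between lines. The 2 DU145 samples held 7.33 and 35.39 TPM, a 4.83-fold difference between cultures of 1 line. The other samples lay from 6.37 to 15.56 TPM, with 8.53 and 6.37 TPM in LNCaP, 8.29 and 12.25 TPM in DUCAP, 14.97 and 12.21 TPM in PC3, and 12.23 and 15.56 TPM in VCAP. All neighbours in the order of line means overlapped. EXO1 was called in none of the comparisons, with differences of −0.77 ± 0.45 in LNCaP (adjusted p = 0.17 by limma) and 0.55 ± 0.45 in DU145 (adjusted p = 0.32 by limma), and the DU145 value was −0.51 without repeat 2 of DU145 and 1.61 without repeat 1.

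Proliferation genes moved with EXO1 between the DU145 repeats. The summed level of 13 such genes was 927 and 2272 TPM in the DU145 samples, and all 13 were higher in repeat 2, with a geometric mean ratio of 2.41. MKI67, the proliferation antigen, was measured at 36.29 and 76.58 TPM there, and MCM2, a subunit of the replicative helicase, at 34.18 and 83.85 TPM. In the other lines the sum ranged from 692 to 1385 TPM, and EXO1 was higher in the repeat with the higher sum in each of the 5 lines. EXO1 relative to the geometric mean of the 13 genes still differed between the DU145 repeats, at −3.10 and −2.10 on the log2 scale, so EXO1 differed by more than the proliferation genes did. In DU145 9.48% of tested genes differed at least 2-fold between the repeats, against 0.902 to 2.12% in the other lines, and whether growth state is the reason for this was not tested.

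**Figure D3:**
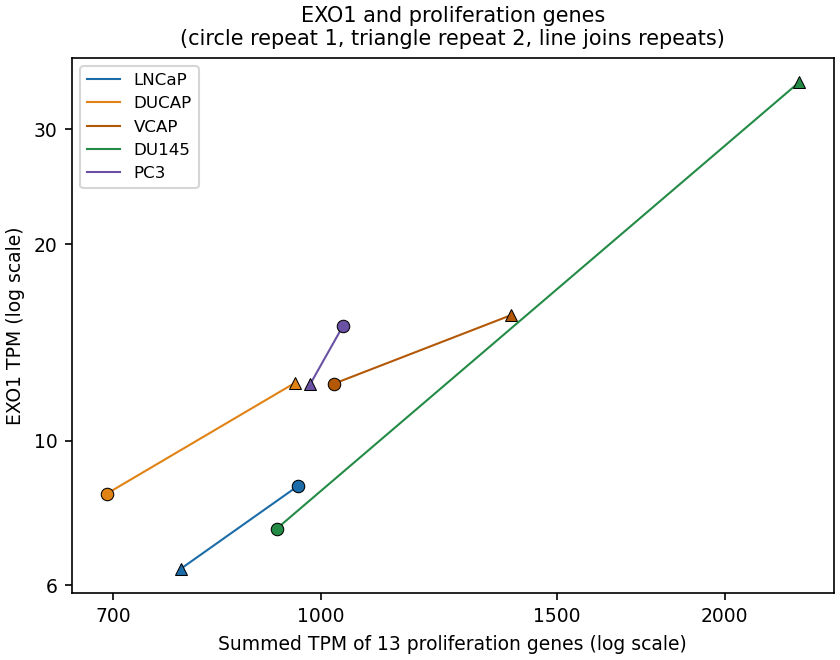
EXO1 level in TPM (y axis, log scale) against the summed TPM of 13 proliferation genes (x axis, log scale), 1 point per sample, with a line joining the 2 repeats of each cell line. The DU145 repeats stand at 927 and 2272 TPM on the x axis and at 7.33 and 35.39 TPM on the y axis.

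Read line by line, 4 of 6 members were called in LNCaP, 3 higher and 1 lower, where 62.4% of all tested genes were called (38.2% higher and 24.2% lower). In DU145 4 of 6 were called, 3 higher and 1 lower, where 63.1% of all tested genes were (40.7% higher and 22.3% lower). The count was 3 of 6 in PC3, 1 higher and 2 lower (67.8% of all tested genes, with 43.2% higher and 24.7% lower), and 3 of 6, all lower, in DUCAP (68.8%, with 11.1% higher and 57.7% lower). In VCAP none of the 6 was called by limma at an adjusted p under 0.05, where 63.9% of all tested genes were (17.3% higher and 46.6% lower), and 0 of 6 had an unadjusted p under 0.05. VCAP members lay within −0.29 and 0.28 of the other lines. Of the genes called, 61.2% were higher in LNCaP, 64.6% in DU145, 63.6% in PC3, 27.1% in VCAP and 16.2% in DUCAP, and after quantile normalization these shares were 49.2, 43.8, 44.7, 46.9 and 49.5%. After quantile normalization or median-ratio scaling the members called were 2 in LNCaP, 3 in DU145, 4 in PC3, 4 in DUCAP and 1 in VCAP, so no order of the lines was read from these counts. The 4 in DUCAP after quantile normalization did not include MLH3 (0.045, adjusted p = 0.85 by limma). Before scaling, MSH3, PMS1 and EXO1 stood at 0.09, −0.15 and −0.26 in DUCAP, above the median of all tested genes of −0.54. The 3 members called lower there are therefore not read as a direction of the set. The median log2 fold change of the 6 members was 0.39 in LNCaP, 0.54 in DU145, 0.04 in PC3, −0.45 in DUCAP and −0.15 in VCAP, beside 0.18, 0.23, 0.26, −0.54 and −0.36 over all tested genes.

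**Figure D4:**
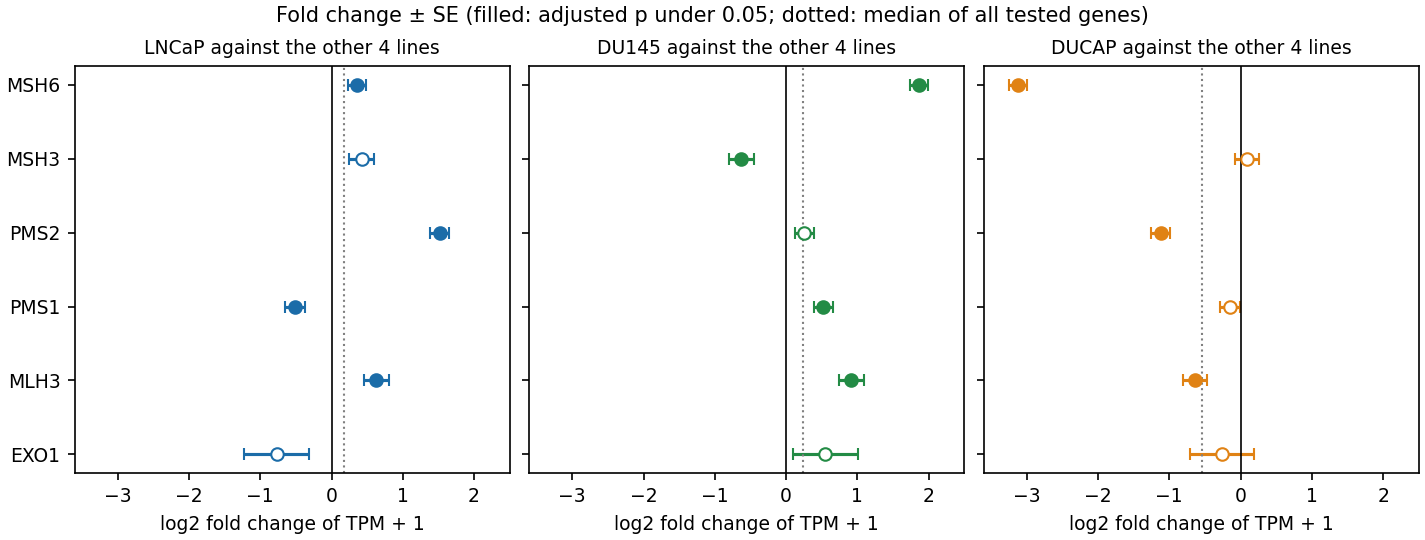
Log2 fold change of TPM + 1 (x axis) with its SE for each member (y axis) in LNCaP, DU145 and DUCAP against the mean of the other 4 lines, filled where the adjusted p was under 0.05, with the median of all tested genes as a dotted line. MSH6 stands at 1.86 in DU145 and −3.12 in DUCAP, and PMS2 at 1.52 in LNCaP.

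Pairs of related lines gave the following values. Between DUCAP and VCAP, MSH6 differed by −2.26 ± 0.16 (adjusted p = 7.6e-05 by limma) and PMS2 by −0.74 ± 0.17 (adjusted p = 0.02 by limma), so that 2 of 6 members were called, where 18.3% of all tested genes were (4.24% higher and 14% lower), and 23.2% of those were higher in DUCAP (50.3% after quantile normalization). MSH6 stood at the 1.0 percentile of that comparison. Between DU145 and PC3, 5 of 6 members were called, where 49.3% of all tested genes were (23.8% higher and 25.5% lower), with MSH6, MLH3, PMS1 and PMS2 higher in DU145 by 0.54, 1.25, 0.53 and 0.57 and MSH3 lower by −0.67, but this count was 2 without repeat 1 of PC3 and 1, MLH3, without repeat 2. Against the mean of DUCAP and VCAP, 4 of 6 members were called in LNCaP, where 64.6% of all tested genes were (49.2% higher and 15.5% lower), with MSH6 at 1.65, MLH3 at 0.86, PMS2 at 1.74 and PMS1 at −0.46. Of the genes called there 76.1% were higher in LNCaP, against 50.4% after quantile normalization, which also ended the MLH3 call (0.22, adjusted p = 0.38 by limma).

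Repair ends with resynthesis and ligation, by PCNA, the RFC1 to RFC5 clamp loader, the RPA single-strand binding proteins, DNA polymerases delta and epsilon and LIG1, and all 15 genes of this list were tested. In LNCaP 3 were higher, 2 lower and 10 not called, where 38.2% of all tested genes were higher and 24.2% lower, with a list median of 0.30 beside 0.18. The higher genes numbered 2 without either LNCaP repeat and 6 without repeat 2 of DU145. RPA3, the small RPA subunit, was higher by 1.50 ± 0.25 (adjusted p = 9e-04 by limma), and POLD2, a subunit of polymerase delta, by 0.73 ± 0.15. LIG1, the ligase that seals the patch, was lower by −0.79 ± 0.21, and POLE, the catalytic subunit of polymerase epsilon, by −0.72 ± 0.16.

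In DU145 8 of the 15 were higher, 1 lower and 6 not called, where 40.7% of all tested genes were higher and 22.3% lower, with a list median of 0.51 beside 0.23. The higher genes numbered 11 without repeat 1 of DU145 and 5 without repeat 2. POLD4 (1.81 ± 0.26) and RPA3 (1.62 ± 0.25) were furthest above the other lines, and POLD2 (−0.95 ± 0.15) was the only one called lower. The count of higher genes was 4 after median-ratio scaling or quantile normalization, and 13 of the 15 genes were higher in repeat 2 of DU145, the sample with the high proliferation genes. RPA3 followed the line groups, at 5.43 to 9.85 TPM in DUCAP and VCAP and at 39.59 to 83.21 TPM in the other lines, without overlap. In DUCAP 7 of the 15 genes were lower and none higher, where 57.7% of all tested genes were lower, and the count was 4 without repeat 1 of DUCAP and 13 without repeat 1 of DU145. It became 3 lower and 1 higher after quantile normalization or median-ratio scaling. In VCAP 3 were higher and 3 lower, where 17.3% of all tested genes were higher and 46.6% lower. In PC3 4 were higher and none lower, where 43.2% of all tested genes were higher and 24.7% lower.

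Of 8 accessory genes 7 were tested, since MSH4, a meiotic MutS homologue, did not exceed 0.13 TPM in any sample. FAN1, a nuclease that binds the MutL dimers, was measured at 30.39 and 35.77 TPM in LNCaP, with 6.66 to 12.57 TPM elsewhere and no overlap (1.71 ± 0.11, adjusted p = 6e-06 by limma). MCM9, a helicase that acts in mismatch repair, was also called higher in LNCaP (0.64 ± 0.14), while SETD2, the histone methyltransferase whose mark recruits MSH6 to chromatin, was lower (−0.86 ± 0.12), as was WRN, a RecQ helicase (−0.40 ± 0.14). LNCaP thus had 2 of 7 higher, 2 lower and 3 not called, where 62.4% of all tested genes were called, with a list median of −0.12 beside 0.18 over all tested genes. In DU145 2 were higher, WRN (0.49 ± 0.14) and MCM9 (0.39 ± 0.14), 1 was lower, SETD2 (−0.36 ± 0.12), and 4 were not called, where 63.1% of all tested genes were called, with a median of 0.17 beside 0.23, and none was higher without repeat 2 of DU145. After quantile normalization MCM9 in DU145 was −0.040.

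PMS1 and PMS2 each start head to head with a gene on the opposite strand. The starts of PMS1 and ORMDL1, a regulator of sphingolipid synthesis, lie 111 bp apart, and those of PMS2 and AIMP2, a scaffold of the aminoacyl-tRNA synthetase complex, lie 166 bp apart. AIMP2 had its highest level where PMS2 did, at 86.87 and 95.72 TPM in LNCaP, 31.13 and 68.46 TPM in DU145 and 14.06 to 32.10 TPM in the other lines, and it was called higher in LNCaP (1.93 ± 0.25, adjusted p = 0.00025 by limma). ORMDL1 was highest in PC3, at 65.68 and 51.83 TPM, where PMS1 was not. Pearson's r of log2(TPM + 1) over the 10 samples, in which the repeats share a line, was 0.86 for PMS2 and AIMP2 and 0.20 for PMS1 and ORMDL1.

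**Figure D5:**
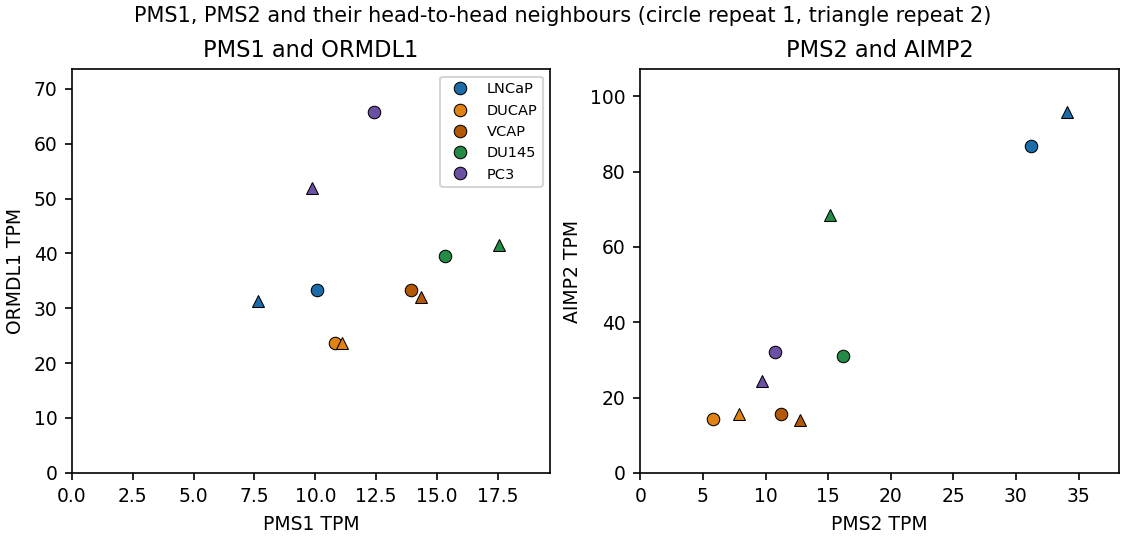
TPM of PMS1 and PMS2 (x axes, from 0) against TPM of the gene that starts head to head with each, ORMDL1 and AIMP2 (y axes, from 0), 1 point per sample and colored by line. LNCaP is highest on both axes for PMS2 and AIMP2, and PC3 is highest for ORMDL1, at 65.68 and 51.83 TPM, with PMS1 at 12.40 and 9.86 TPM.

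The genes beside MSH6 were compared as well. FBXO11, an F-box protein gene that overlaps the 3′ end of MSH6, was measured at 12.74 and 14.95 TPM in LNCaP, 15.61 and 17.15 TPM in DUCAP and 30.59 to 35.33 TPM in VCAP, DU145 and PC3. The library kit keeps strand, but the strand setting of the counting is not given in the sources used here, so reads from the overlap may not be told apart. FBXO11 was lower in LNCaP by −0.94 ± 0.11 (adjusted p = 0.00012 by limma), where MSH6 was not. FOXN2, a forkhead gene 503558 bp beyond MSH6, was lowest in LNCaP, at 3.76 and 3.57 TPM (−1.04 ± 0.11, adjusted p = 7.3e-05 by limma), and highest in DU145, at 12.48 and 13.19 TPM. KCNK12, on the other side, did not exceed 0.20 TPM in any sample.

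By pattern over the 10 samples, the genes most like each member were listed among 13286 candidates by Pearson's r of log2(TPM + 1). For MSH6 they were PSMD5 (r = 0.99), GGH (0.99) and ITSN2 (0.98), and for PMS2 they were TDRD3 (0.98), PAK4 (0.98) and AK3 (0.98). EXO1 was most like NUF2 (0.97), STIL (0.96) and CDCA8 (0.96). MLH3 was most like NUP88 (0.97), ADPGK (0.97) and ZNF569 (0.96), PMS1 like MUSTN1 (0.96), ITSN1 (0.94) and NIPBL (0.94), and MSH3 like TRMT10C (0.94), POLR3B (0.93) and MRPS35 (0.92). The repeats share a line, and these values are given as a description. Among the members themselves r ranged from −0.72 for MSH3 and PMS1 to 0.73 for MLH3 and PMS2, and it was −0.26 for MSH3 and MSH6.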

How the data were processed

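Bulk RNA-seq of 5 untreated prostate cancer cell lines with 2 biological repeats each was analysed. The submitters' processing notes name FastQC 0.11.9, Trim Galore 0.6.5, STAR 2.7.2b and RSEM 1.3.3, and the authors aligned reads to GRCh38 and deposited TPM per gene symbol, with repeats not pooled. How rows sharing a symbol were merged is not given in the sources used here. Since TPM hold no library depth, counting intervals and detection limits were not given, and precision rests on 2 repeats per line.

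Groups were taken from the deposited labels. Log2(TPM + 1) values of the 17520 genes that reached 1 TPM in 2 or more samples were fitted in limma (version 3.58.1, R version 4.3.3). The model had a coefficient for each line and a prior variance trend, used all 10 samples, and p-values were adjusted by Benjamini-Hochberg over these genes at 0.05. "Called" means past that threshold. Ratios of TPM were tested by exact permutation in Python 3.11.15. The fitting was tested on simulated data in which 200 of 17520 genes were changed in LNCaP by 1.5 on the log2 scale. It recovered 85.5% of them, and 7.57% of the genes called were false. In the real LNCaP comparison 62.4% of tested genes were called, so the simulation held far fewer changes than the data. The members, the gene lists and the tests were chosen with earlier results of these data known. Named genes were all members, the 2 largest called changes in each direction of the resynthesis and accessory lists in LNCaP and DU145, head-to-head partners, neighbours of MSH6 and the 3 genes most like each member. Some genes of the pathway, of the marker lists and among the partners are not reported here. On average, repeats with the same number did not deviate together (mean r = 0.00922 over 10 pairs of lines, from −0.19 to 0.25, 3 of them over 0.1). They were therefore not treated as pairs. The culture numbers in the labels of DU145 and PC3 differ in part from the repeat numbers, and pairing by culture number was not examined. Alternatives were another pseudocount, 2 other filters on low values, 3 rescalings, no variance trend, a replicate block, ratios of TPM + 1, and each sample left out.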

Additional observations from a re-analysis of the deposited data

How the results depend on the processing

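For the 29 member differences given in the report, 8 other settings of the fit gave 218 values with the same direction and side of the threshold, 11 with the same direction but no longer called, and 3 of the opposite direction. After quantile normalization PMS2 in DU145 was −0.13 and MLH3 in DUCAP 0.045, and of the other named genes MCM9 in DU145 was −0.040. After median-ratio scaling PMS2 in DU145 was −0.054. These 2 scalings moved the median of all tested genes from −0.54 to 0.00 and −0.10 in DUCAP and from 0.18 to −0.03 and −0.07 in LNCaP. Both gave 2 called members in LNCaP in place of 4, 3 in DU145 in place of 4, 4 in PC3 and 4 in DUCAP in place of 3, and 1 in VCAP in place of 0. Rescaling without the mitochondrial genes gave 3 in LNCaP, 4 in DU145, 4 in PC3, 3 in DUCAP and 1 in VCAP. It left the median of all tested genes at −0.43 in DUCAP, −0.19 in VCAP and 0.09 in LNCaP. The log2 MSH6 to MSH3 difference of LNCaP, near 0, was −0.061 with ratios of TPM + 1. The cause was not tested.

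With 1 sample left out, where the lone sample of a line is assumed to vary like the others, members called ranged from 1 to 6 in LNCaP, 1 to 4 in PC3, 0 to 2 in VCAP, 1 to 2 for DUCAP against VCAP and 1 to 5 for DU145 against PC3. The largest losses were without repeat 2 of LNCaP (1 called), without repeat 1 of PC3 (1 called in PC3), without repeat 2 of PC3 (1 called in DU145 against PC3), and for DUCAP against VCAP without repeat 1 of DUCAP or either VCAP repeat (1 called). Called genes for DUCAP against VCAP, 3200 with all samples, ranged from 1319 without repeat 1 of DUCAP to 4955 without repeat 1 of DU145. EXO1 in DU145 ranged from −0.51 to 1.61, the log2 MSH6 to MSH3 difference of LNCaP from −0.45 to 0.32 and the log2 PMS2 to PMS1 difference of DU145 from −0.43 to 0.0030.

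With a replicate block, genes called for DUCAP against VCAP numbered 2939 and members called 2, as without it, and the pairing by repeat number changed no member's call in the other comparisons.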

Other observations

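After the values were seen, the genes within 1000000 bp of MSH6 were compared between DUCAP and VCAP, the lines from the same patient. MSH6 in DUCAP stood at 0.145 of its VCAP level. Of 8 other genes there with a mean of at least 1 TPM, 7 had a ratio below 1, with ratios from 0.237 to 1.40 and a median of 0.665, which was not tested. Only CALM2 overlapped between the lines, at a ratio of 0.981. TTC7A was higher in DUCAP without overlap, at a ratio of 1.40. The others were lower in DUCAP without overlap, among them STON1 (1.21 and 1.20 against 4.51 and 5.65 TPM) and MCFD2 (19.81 and 23.69 against 35.66 and 40.04 TPM). The share of all tested genes without overlap between this pair is not given here. Over all tested genes the median log2 fold change of this pair was −0.12, with 14% called lower in DUCAP and 4.24% called higher. Neither the count nor the lack of overlap is therefore read as a trait of this locus.

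The 6 members summed to 38.05 and 46.27 TPM in DUCAP, 61.31 and 69.92 TPM in VCAP, 73.71 to 88.15 TPM in PC3 and LNCaP, and 92.07 and 141.35 TPM in DU145.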
